A study of Mus musculus with 93 samples.

Results

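The transcriptional effect of a Ring1b point mutation was set against that of a linker histone H1 knockout in mouse embryonic stem cells, gene by gene. All 12 RNA-seq libraries of the series were used, out of 93 samples in all. The cells are of the R1 line and were grown in medium with fetal bovine serum and leukaemia inhibitory factor (LIF). Set 1 holds 3 wild type and 3 Ring1b I53A libraries, and set 2 holds 3 wild type and 3 libraries labelled H1b/c/d/e-QKO (QKO below). The labels do not say whether replicates came from separate cultures or clones, nor whether a mutant is 1 clone, and p-values therefore speak of the spread among these 12 libraries, part of which may be technical. The labels name neither an alteration common to both mutants nor a treatment.

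RING1B, encoded by Rnf2, is the catalytic subunit of Polycomb repressive complex 1 (PRC1), which attaches ubiquitin to histone H2A. The I53A substitution lies in the surface that contacts the ubiquitin-conjugating enzyme and is known to impair that activity while the protein still assembles into its complexes. Canonical PRC1 contains CBX and PHC subunits and compacts chromatin, whereas variant PRC1 contains RYBP or YAF2. Linker histone H1 binds nucleosomes where DNA enters and leaves and is known to promote chromatin folding. The title of the series places H2A ubiquitin beside canonical PRC1 and H1-dependent compaction, so the mutants address both sides of that question in 1 cell line.

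For each gene the I53A effect is the log2 ratio of I53A to set 1 wild type, and the QKO effect is the log2 ratio of the libraries labelled QKO to set 2 wild type. The interaction is the I53A effect minus the QKO effect, so a positive value means relatively higher expression under I53A. Levels were not read across sets, because the alignments of the sets are named differently. Levels are given in CPM (counts scaled to a common library size) after TMM scaling, and effects and interactions in log2 units with their standard errors (SE). A gene was called at an adjusted p under 0.05 (edgeR's quasi-likelihood test, two-sided, Benjamini-Hochberg over 16501 genes), and adjusted p-values below are from that test. Depth ranged from 12585621 to 23378930 counts, and 19419 to 21519 genes had a count in a library. Replicate 3 of both set 1 groups stood apart: every pair of set 1 replicates that includes it had a chi-square per degree of freedom of at least 23.0, against at most 4.66 for all other pairs. Embryonic stem cell markers were present in every group. The summed level of 8 of them, Pou5f1 and Nanog included, was 5442 to 6228 CPM in set 1 wild type and 4582 to 5151 CPM in I53A, and 6671 to 6770 CPM in set 2 wild type and 7667 to 7797 CPM in the libraries labelled QKO.

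The targeted genes were read first. Rnf2 (chr1:153316536-153347953, minus strand, mm9) stood at 182, 179 and 166 CPM in set 1 wild type and 93.5, 91.7 and 81.1 CPM in I53A, an effect of -0.98 ± 0.07. In set 2 the wild type libraries had 220.3, 214 and 199 CPM and the libraries labelled QKO 182, 189 and 186 CPM, an effect of -0.18 ± 0.06. The fall under QKO was small and lost its call when any 1 library labelled QKO, or replicate 1 or 2 of set 2 wild type, was left out (-0.19 to -0.16). Rnf2 transcripts fell more under I53A than under QKO (interaction -0.80 ± 0.09, adjusted p = 1.14e-05). Counts per gene do not show the point mutation itself.

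The H1 transcripts did not bear out the QKO label. Hist1h1c, which encodes H1c, stood at 8.75, 10.1 and 10.1 CPM in set 2 wild type and 7.83, 8.45 and 9.97 CPM in the libraries labelled QKO, groups that overlap, with an effect of -0.14 ± 0.22 (95% interval -0.61 to 0.33). Hist1h1b, which encodes H1b, had 0.245, 0.525 and 0.0981 CPM in set 2 wild type against 2.79, 3.47 and 3.55 CPM in the libraries labelled QKO, and so rose (3.50 ± 0.49, adjusted p = 2.01e-05). Hist1h1d had 27 counts over the wild type libraries and 27 over those labelled QKO, and Hist1h1e had too few counts to be tested. Transcripts of replication-dependent histones lack a poly(A) tail. How RNA was selected and which parts of these genes were deleted are both not given in the sources used here, so these counts do not check the alleles. Every change given below as under QKO therefore refers to the libraries labelled QKO, whose genotype these counts do not check.

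Both mutants changed a large part of the transcriptome, and by more than the replicate spread. The I53A effect was called for 7280 of 16501 genes (44.1%), 3784 higher (22.9%) and 3496 lower (21.2%). The QKO effect was called for 6825 genes (41.4%), 3495 higher (21.2%) and 3330 lower (20.2%). The interaction was called for 5961 genes (36.1%), 2968 relatively higher under I53A (18.0%) and 2993 relatively lower (18.1%), and for 2229 of them the 2 effects differed by at least 2-fold. The medians over all genes tested were 0.01 for each effect and 0.00 for the interaction, so counts up and down below are read against a balanced background.

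Among the 3707 genes that moved in both mutants, same-direction change was the more frequent. These genes were 50.9% of the I53A calls and 54.3% of the QKO calls. Of them 2473 (66.7%) changed with the same sign and 1234 changed with opposite signs. Shared genes comprised 1322 higher in both (8.01% of genes tested) and 1151 lower in both (6.98%). Shared higher genes made up 34.9% of the genes higher under I53A and 37.8% of those higher under QKO, and shared lower genes 32.9% and 34.6% of those lower. Opposite genes comprised 583 higher under I53A and lower under QKO (3.53%) and 651 the other way round (3.95%), all with the interaction called. Across the 16501 genes the effects correlated with Pearson's r = 0.343 and Spearman's rho = 0.220, a description over genes that share libraries and are not independent replicates.

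**Figure D1:**
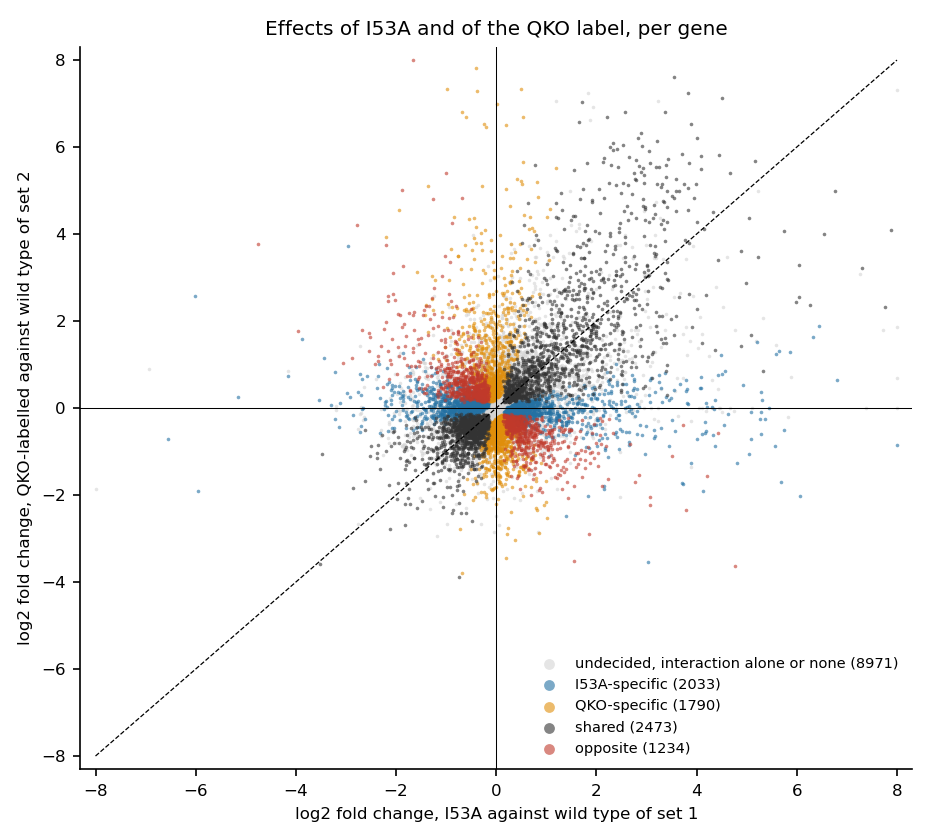
Each point is 1 of 16501 genes, with the I53A effect on the x axis and the QKO effect on the y axis, both log2 against the wild type of the same set, coloured by class, and with equal effects on the dashed line. Effects beyond 8 are drawn at the edge (7 genes), and shared genes (2473) fill the lower left and upper right while opposite genes (1234) fill the other corners.

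The shared counts were uneven in size and level. The median effects of the shared higher genes were 1.04 under I53A and 1.07 under QKO, and those of the shared lower genes were -0.52 and -0.50. At 2-fold or more in both mutants, 561 genes were higher in both and only 66 lower in both. Shared higher genes were also low in wild type: their median was 5.25 CPM in set 1, where the median of all genes tested was 17.4 CPM, and 3.86 CPM in set 2, where it was 16.0 CPM. Shared lower genes had medians of 44.1 CPM in set 1 and 47.1 CPM in set 2. In wild type, 24.81% of the shared higher genes were under 1 CPM in set 1 and 33.96% in set 2. For the shared lower genes these shares were 0.52% and 0.61%. A gene that low could pass the filter on low counts through a group where it was higher, while its fall could hardly be called. The part of this filter and floor in the uneven size and level was not tested. Of the shared genes, 687 still had the interaction called, which means the same direction with different size. Among these, 167 of the shared higher genes rose more under I53A and 204 more under QKO, and 178 of the shared lower genes fell more under I53A and 138 more under QKO. For the other 1786 shared genes the interaction was not called, which does not show that the effects were equal.

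Genes specific to 1 mutant, meaning called there, not called in the other, and with the interaction called to match, were also frequent. I53A-specific genes comprised 1018 higher (6.17%) and 1015 lower (6.15%), with median I53A effects of 0.66 and -0.62 beside median QKO effects of -0.07 and 0.06. QKO-specific genes comprised 846 higher (5.13%) and 944 lower (5.72%), with median QKO effects of 0.84 and -0.57 beside median I53A effects of -0.08 and 0.06. Another 2868 genes were called in 1 mutant without the interaction being called, so they were assigned to neither, 217 had the interaction alone called, and 5886 had nothing called.

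Genes of some chromosomes shifted together, with the largest medians on chromosomes 8 and 14. On chromosome 8 the median I53A effect over 860 genes was -0.38, with medians of -0.49 to -0.27 in all 7 windows of 20 Mb, and the median QKO effect was -0.03. On chromosome 14 the median QKO effect over 579 genes was 0.50, with medians of 0.40 to 0.50 in all 5 windows. There the median I53A effect was -0.19, with medians of -0.28 to -0.17 in all 5 windows. A smaller shift stood on chromosome 12, with a median QKO effect of -0.14 over 584 genes and medians of -0.25 to -0.12 in all 6 windows. Windows were computed for these 3 chromosomes alone. The shifts of chromosomes 8 and 14 stood in every mutant library: the 3 I53A libraries had chromosome 8 medians of -0.41, -0.41 and -0.41 against their wild type mean, and the 3 libraries labelled QKO had chromosome 14 medians of 0.43, 0.44 and 0.42. Chromosome 8 holds 5.21% of the genes tested but 183 of the 1015 I53A-specific lower genes (18.0%) and 161 of the 1151 shared lower genes (14%). Chromosome 14 holds 3.51% of the genes tested but 144 of the 651 genes lower under I53A and higher under QKO (22.1%) and 106 of the 846 QKO-specific higher genes (12.5%). Chromosome number was not measured, and its part in these counts was not tested.

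**Figure D2:**
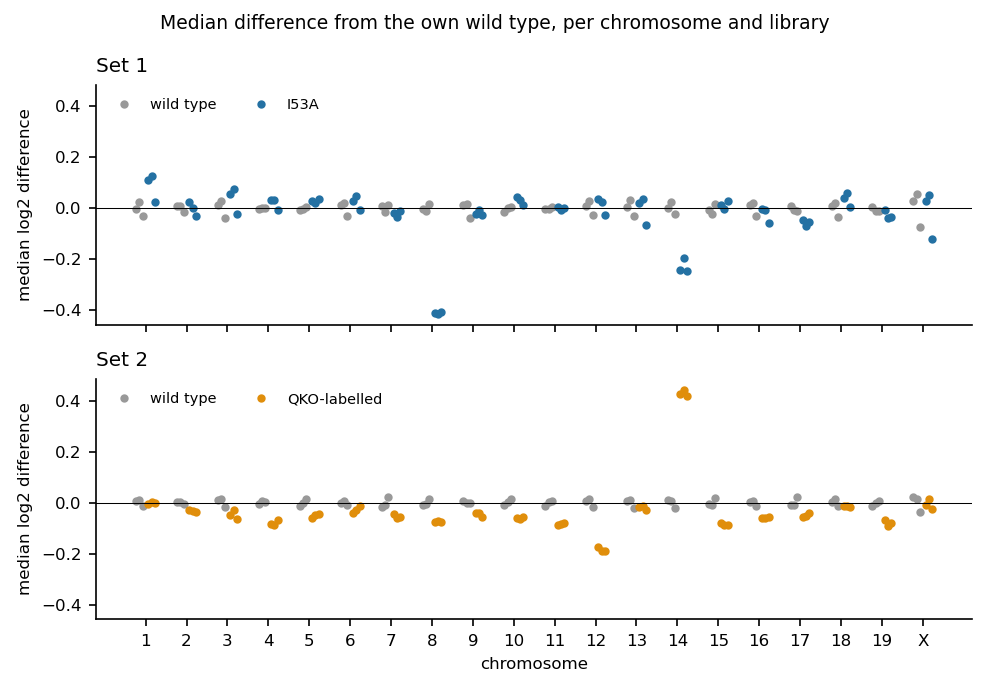
For each chromosome (x axis) the points give each library's median log2 difference from the wild type mean of its own set (y axis), over genes with a mean of at least 5 CPM, with set 1 and set 2 in separate panels. The 3 I53A libraries lie near -0.41 on chromosome 8, and the 3 libraries labelled QKO lie between 0.42 and 0.44 on chromosome 14.

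Without both chromosomes the classes held 1235 shared higher, 975 shared lower, 569 and 447 opposite, 992 and 789 I53A-specific and 697 and 923 QKO-specific genes, in the order above, and r was 0.354. The opposite and the shared lower counts also depended on how replicate 3 of set 1 was handled. With the replicate number as a block in each set, shared lower genes numbered 1831 and opposite genes 1003 and 994. With a term for replicate 3 of set 1 they numbered 1781, and 984 and 993.

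**Figure D3:**
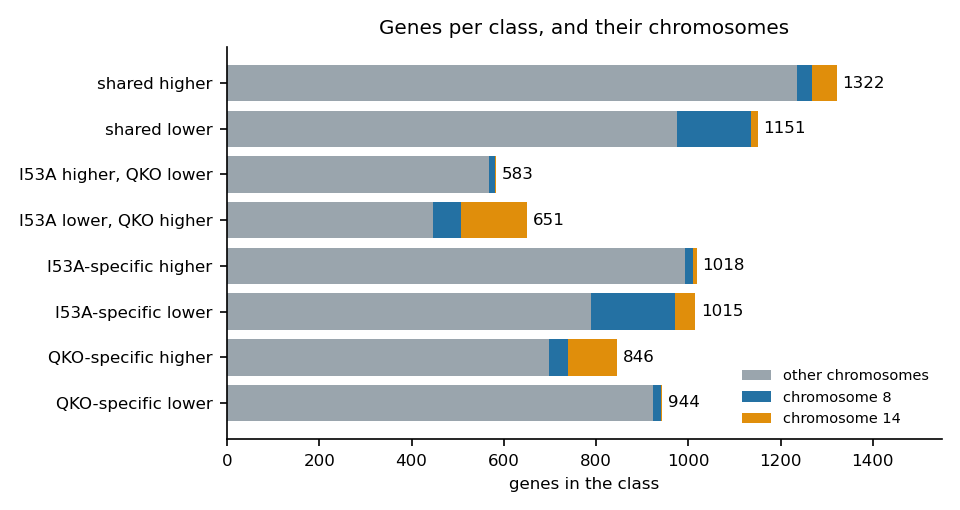
Bars give the number of genes (x axis) in each of 8 classes (y axis), divided into genes on chromosome 8, on chromosome 14 and elsewhere. Shared higher is the largest class (1322 genes), and chromosome 14 takes 144 of the 651 genes that were lower under I53A and higher under QKO.

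Of the 4 shared higher genes ranked first, Zscan4f and Dub1 are markers of two-cell-like cells, a rare state of embryonic stem cell cultures that transcribes genes of the early cleavage embryo. Zscan4f encodes a zinc finger protein. It stood at 5.84, 6.98 and 3.28 CPM in set 1 wild type and 90.5, 97.9 and 47.6 CPM in I53A, and at 0.122, 0.233 and 0.0981 CPM in set 2 wild type and 6.62, 6.68 and 9.87 CPM in the libraries labelled QKO. The mutant libraries lay above all wild type libraries in both sets. The rule for genes named by class required such a separation wherever an effect was called. The effects were 3.85 ± 0.32 and 5.64 ± 1.14, with an interaction of -1.79 ± 1.19 (adjusted p = 0.187). Dub1 (chr7:112005523-112011181, plus strand, mm9) encodes a deubiquitinase of the Usp17 family. It stood at 5.73, 6.71 and 6.49 CPM in set 1 wild type and 109, 121 and 103 CPM in I53A, and at 0.306, 0.117 and 0.0981 CPM in set 2 wild type and 3.33, 2.95 and 2.76 CPM in the libraries labelled QKO. Its effects were 4.14 ± 0.11 and 4.12 ± 0.40, and the 95% interval of the interaction ran from -0.88 to 0.91. Both genes belong to families of near-identical copies, so the origin of their reads is uncertain.

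Of 14 tested genes of the two-cell-like list, 13 rose under I53A and 13 under QKO, all 13 in the shared higher class (12 or 13 with any 1 library left out), where 22.9% and 21.2% of all genes rose. Their median effects were 3.40 and 4.58, the latter with 1 member that had no counts in set 2 wild type placed at its bound. The summed level of 5 two-cell-like markers was only 0.491 to 1.11 CPM in set 2 wild type, where a fall could hardly be called. A gene that low could pass the filter on low counts through a group where it was higher. The part of this filter and floor in the counts of the list was not tested. The interaction was called for 3 members, all toward a larger QKO effect. That number was 7 with the replicate block, and it ran from 1 without replicate 3 of set 2 wild type to 6 without replicate 3 of set 1 wild type, and was 5 without replicate 3 of the libraries labelled QKO. One of the 3 was Zscan4d, at 19.7, 19.7 and 13 CPM in set 1 wild type and 186, 202 and 163 CPM in I53A, and 0.367, 0.642 and 0.245 CPM in set 2 wild type and 15.4, 19.5 and 15.2 CPM in the libraries labelled QKO (interaction -1.93 ± 0.45, adjusted p = 0.0022). Dux, the transcription factor that activates this programme, had the largest called interaction of the list (-2.88, adjusted p = 0.0212), on 31 and 91 counts in set 1 wild type and I53A and on 1 and 31 counts in set 2. That interaction lost its call without replicate 1 (-2.51) or 3 (-2.38) of set 2 wild type and without both replicate 3 libraries of set 1 (-2.61). In bulk RNA, more cells in that state and more RNA per cell cannot be told apart.

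The promoters of these genes are shown because PRC1 is known to be recruited to promoters rich in CG pairs, and because opposite and shared genes can be set beside each other. Sequences are RefSeq's on GRCm38.p6, a later build than that of the counts, in the direction of transcription and up to the start of the gene, with each CG pair in capitals. Over 32851 promoters of 250 bases the median was 6 CG pairs.
Zscan4f, shared higher, chr7:11397665-11397914, plus strand: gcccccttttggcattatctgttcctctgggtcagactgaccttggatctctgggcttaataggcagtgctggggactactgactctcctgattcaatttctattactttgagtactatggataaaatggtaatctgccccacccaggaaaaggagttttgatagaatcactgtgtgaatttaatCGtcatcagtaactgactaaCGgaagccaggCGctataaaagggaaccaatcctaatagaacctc
Dub1, shared higher, chr7:104856766-104857015, plus strand: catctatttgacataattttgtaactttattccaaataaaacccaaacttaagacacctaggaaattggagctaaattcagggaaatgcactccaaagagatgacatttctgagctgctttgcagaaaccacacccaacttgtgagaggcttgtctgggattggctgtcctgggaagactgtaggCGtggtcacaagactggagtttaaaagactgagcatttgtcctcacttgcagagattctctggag
Fgf10, higher under I53A and lower under QKO, chr13:118714449-118714698, plus strand: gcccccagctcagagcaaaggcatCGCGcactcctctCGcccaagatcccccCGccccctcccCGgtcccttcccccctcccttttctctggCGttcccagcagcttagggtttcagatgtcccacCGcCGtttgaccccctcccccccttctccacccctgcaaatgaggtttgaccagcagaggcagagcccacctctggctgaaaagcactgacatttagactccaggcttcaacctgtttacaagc
Slfn9, lower under I53A and higher under QKO, chr11:82991831-82992080, minus strand: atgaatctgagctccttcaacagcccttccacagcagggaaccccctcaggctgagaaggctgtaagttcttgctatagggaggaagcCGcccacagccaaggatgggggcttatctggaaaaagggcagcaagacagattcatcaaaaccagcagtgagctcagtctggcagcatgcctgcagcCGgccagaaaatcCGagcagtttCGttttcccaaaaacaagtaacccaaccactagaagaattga
Col4a1, I53A-specific higher, chr8:11312827-11313076, minus strand: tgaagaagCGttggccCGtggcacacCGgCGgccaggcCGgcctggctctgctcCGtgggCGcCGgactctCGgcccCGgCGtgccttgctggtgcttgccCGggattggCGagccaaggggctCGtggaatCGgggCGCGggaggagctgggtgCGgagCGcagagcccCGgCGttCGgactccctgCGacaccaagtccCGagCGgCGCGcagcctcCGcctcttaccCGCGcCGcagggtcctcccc
H1f0, shared higher and larger under QKO, chr15:79027962-79028211, plus strand: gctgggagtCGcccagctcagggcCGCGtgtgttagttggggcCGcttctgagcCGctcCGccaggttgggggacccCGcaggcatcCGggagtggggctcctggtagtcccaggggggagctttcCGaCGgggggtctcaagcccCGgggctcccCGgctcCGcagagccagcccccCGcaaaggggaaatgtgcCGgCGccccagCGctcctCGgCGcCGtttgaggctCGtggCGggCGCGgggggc
Zscan4f had 3 CG pairs (71% of promoters held at least as many), Dub1 1 (92.1%), Slfn9 4 (62.2%) and Fgf10 8 (43%). H1f0 had 24 (12%) and Col4a1 31 (5.19%). These 6 promoters describe the genes named and not their classes.

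The other shared higher genes chosen by the ranking were Nxf7 and Col1a2. Nxf7, an X-linked gene of the nuclear RNA export factor family, stood at 0.265, 0.159 and 0.500 CPM in set 1 wild type and 30.2, 31.5 and 35.5 CPM in I53A, an effect of 6.76 ± 0.45. In set 2 it had 3 counts over the wild type libraries and 113 over those labelled QKO, a ratio of 35.1 (95% interval of counting error 11.7 to 173), and the interaction was not called (1.78 ± 1.05, adjusted p = 0.303). Chromosome X held 92 of the 1322 shared higher genes (6.96%) and 3.84% of the genes tested. Col1a2, a chain of type I collagen, stood at 0.212, 0.317 and 0.357 CPM in set 1 wild type and 4.86, 4.91 and 4.03 CPM in I53A, and at 0.0612, 0.350 and 0.0981 CPM in set 2 wild type and 5.22, 5.63 and 4.0 CPM in the libraries labelled QKO. No wild type library exceeded 0.357 CPM, and the gene rose in both mutants (3.96 ± 0.41 and 4.82 ± 0.49).

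The shared lower genes named by the ranking were Nkx6-3, Krt17, Prdm1 and Mapk12. Nkx6-3, a homeodomain transcription factor gene on chromosome 8, stood at 16.1, 15.7 and 18.2 CPM in set 1 wild type and 1.43, 1.62 and 1.27 CPM in I53A, and at 5.2, 5.78 and 4.37 CPM in set 2 wild type and 0.360, 0.524 and 0.395 CPM in the libraries labelled QKO. Its effects were -3.51 ± 0.18 and -3.59 ± 0.26, with an interaction of 95% interval -0.59 to 0.74. Prdm1 (chr10:44156983-44248307, minus strand, mm9) encodes a repressor needed for germ cell specification. It stood at 30.2, 34.5 and 41 CPM in set 1 wild type and 4.6, 4.91 and 5.0 CPM in I53A, and at 13.2, 12.6 and 13.5 CPM in set 2 wild type and 4.28, 3.27 and 3.36 CPM in the libraries labelled QKO. It fell in both, and further under I53A (-2.86 ± 0.14 against -1.84 ± 0.14, interaction -1.03 ± 0.20, adjusted p = 0.000893). Krt17, a keratin, had effects of -1.98 ± 0.20 and -2.09 ± 0.22, and Mapk12, a p38 kinase, had effects of -1.74 ± 0.16 and -1.86 ± 0.15, neither with the interaction called.

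Genes higher under I53A and lower under QKO included Fgf10 and Cryab. Fgf10 (chr13:119458598-119580922, plus strand, mm9), a growth factor of limb and lung budding, stood at 1.7, 0.634 and 1.28 CPM in set 1 wild type and 8.77, 11.1 and 10.7 CPM in I53A. In set 2 the wild type libraries had 2.2, 2.8 and 2.9 CPM and the libraries labelled QKO 0.405, 0.786 and 0.543 CPM. The I53A libraries lay above and the libraries labelled QKO below all their wild type libraries, with effects of 3.07 ± 0.28 and -2.22 ± 0.35 and an interaction of 5.30 ± 0.45 (adjusted p = 3.46e-07). Fgf10 overlaps a gene on the other strand (Gm16263), whose reads cannot be told apart from its own. Cryab, a small heat shock protein of the lens, stood at 6.0, 5.45 and 5.49 CPM in set 1 wild type and 17.9, 12.4 and 19.9 CPM in I53A, and at 4.9, 4.32 and 5.35 CPM in set 2 wild type and 1.44, 1.11 and 1.58 CPM in the libraries labelled QKO. It had effects of 1.56 ± 0.17 and -1.80 ± 0.22.

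Genes lower under I53A and higher under QKO included Slfn9, which had the largest interaction of the 30 genes shown by class. Slfn9 (chr11:82793131-82805332, minus strand, mm9), of the Schlafen family, stood at 19.1, 20.5 and 21.7 CPM in set 1 wild type and 0.528, 1.08 and 0.597 CPM in I53A. In set 2 the wild type libraries had 1.77, 1.69 and 1.91 CPM and the libraries labelled QKO 24, 24.8 and 25 CPM. Within each set the groups did not overlap, and the effects were -4.76 ± 0.21 and 3.77 ± 0.16, an interaction of -8.53 ± 0.27 (adjusted p = 3.32e-12). Aurkc, an Aurora kinase of meiosis, stood at 3.45, 3.38 and 1.07 CPM in set 1 wild type and 0.951, 0.539 and 0.224 CPM in I53A, and at 3.92, 3.33 and 3.34 CPM in set 2 wild type and 20.3, 18.9 and 19.2 CPM in the libraries labelled QKO (effects -2.16 ± 0.46 and 2.47 ± 0.28). Set 1 replicate 3 was low for Aurkc in both groups. The naming rule required groups that do not overlap, and the lowest wild type value of set 1 (1.07 CPM) lay close to the highest I53A value (0.951 CPM). Creb5, a leucine zipper transcription factor, and C8b, a complement component, had interactions of -4.75 ± 0.73 and -5.18 ± 0.91.

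The I53A-specific rises ranked first were Gata6, Flt1, Col4a2 and Col4a1. Gata6, a transcription factor that specifies primitive endoderm, the extraembryonic lineage that lays down basement membrane, stood at 0.796, 0.476 and 0.999 CPM in set 1 wild type and 27.7, 23.8 and 34.9 CPM in I53A, and at 2.33, 2.16 and 2.5 CPM in set 2 wild type and 1.89, 2.16 and 1.83 CPM in the libraries labelled QKO. It rose by 5.27 ± 0.26 under I53A, while the groups of set 2 overlap (95% interval of the QKO effect -0.73 to 0.21). Gata6 overlaps a gene on the other strand (1010001N08Rik), so the limit given for Fgf10 holds here too. Col4a1, a chain of the type IV collagen of basement membranes, stood at 33.5, 34.7 and 39.5 CPM in set 1 wild type and 753, 706 and 685 CPM in I53A, and at 47.1, 46.2 and 52 CPM in set 2 wild type and 45.5, 48.3 and 53.5 CPM in the libraries labelled QKO. Its interval for the QKO effect, -0.15 to 0.19, is narrow beside the I53A effect of 4.32 ± 0.08. Col4a2, its partner chain, which lies beside it on chromosome 8 and overlaps it, had an I53A effect of 4.63 ± 0.11 and a QKO effect of -0.13 ± 0.11. Flt1, a VEGF receptor, had an I53A effect of 4.34 ± 0.37 and a QKO effect with an interval of -1.34 to 0.09.

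Among I53A-specific falls, Pmel (chr10:128143314-128157294, plus strand, mm9), a melanosome matrix protein, stood at 35.9, 30.4 and 37.5 CPM in set 1 wild type and 3.43, 4.31 and 4.25 CPM in I53A, and at 4.53, 4.43 and 4.86 CPM in set 2 wild type and 5.18, 4.98 and 4.79 CPM in the libraries labelled QKO. It fell only in set 1 (-3.12 ± 0.13, with a QKO effect of 0.11 ± 0.13 and an interaction of adjusted p = 1.26e-08). Pmel overlaps Dgka. Glod5, a glyoxalase domain gene, and Ushbp1, on chromosome 8, had interactions of -3.51 ± 0.50 and -3.32 ± 0.70. The set 2 groups of Glod5 did not overlap, but its QKO effect, of the other sign, was not called. It was 0.79, with an interval of 0.09 to 1.48 (adjusted p = 0.0631). Rab33a, a small GTPase, had an I53A effect of -1.61 ± 0.46 (adjusted p = 0.00836). Without replicate 3 of set 1 that effect was -0.90 (adjusted p = 0.13, the same test) and no longer called. The set 2 groups of Rab33a did not overlap either, but its QKO effect, also of the other sign, was not called. It was 0.94, with an interval of 0.13 to 1.75 (adjusted p = 0.059).

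Among QKO-specific rises, Muc3 (chr5:137610794-137625994, minus strand, mm9), an intestinal mucin, stood at 0.743, 0.793 and 0.714 CPM in set 1 wild type and 0.951, 1.29 and 1.04 CPM in I53A, and at 0.612, 0.233 and 0.491 CPM in set 2 wild type and 23.3, 23.1 and 22.5 CPM in the libraries labelled QKO. The libraries labelled QKO lay far above their wild type, and the set 1 groups did not overlap either, but the I53A effect was not called (QKO effect 5.66 ± 0.26, I53A effect with an interval of -0.02 to 1.11, interaction adjusted p = 1.07e-07). Pdha2, the testis form of a pyruvate dehydrogenase subunit, had 3 counts in set 2 wild type and 133 in the libraries labelled QKO, a ratio of 41.3 (95% interval of counting error 13.8 to 203). Tktl2, a transketolase-like gene, rose by 3.80 ± 0.48 and H2-Eb1, an MHC class II chain, by 3.80 ± 0.81 under QKO, and neither was called under I53A.

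Among QKO-specific falls, Fkbp6 (chr5:135767574-135825895, minus strand, mm9), an immunophilin of meiotic cells, stood at 7.0, 5.55 and 8.35 CPM in set 1 wild type and 7.61, 8.52 and 7.76 CPM in I53A, and at 1.84, 1.63 and 2.31 CPM in set 2 wild type and 0.315, 0 and 0.148 CPM in the libraries labelled QKO. The libraries labelled QKO were at or near the floor and the I53A libraries overlapped their wild type (effects -3.44 ± 0.54 and 0.20 ± 0.23, interaction 3.64 ± 0.59, adjusted p = 5.55e-05). Hoxc12, a posterior Hox gene, Metrn, a secreted neurotrophic factor, and Vax2, a homeodomain factor of the ventral retina, had QKO effects of -2.34 ± 0.46, -2.29 ± 0.57 and -2.77 ± 0.49. Their I53A effects were 0.81, 0.80 and 0.24, none of them called. That of Hoxc12 had an interval of 0.09 to 1.52, and its set 1 groups did not overlap.

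**Figure D4:**
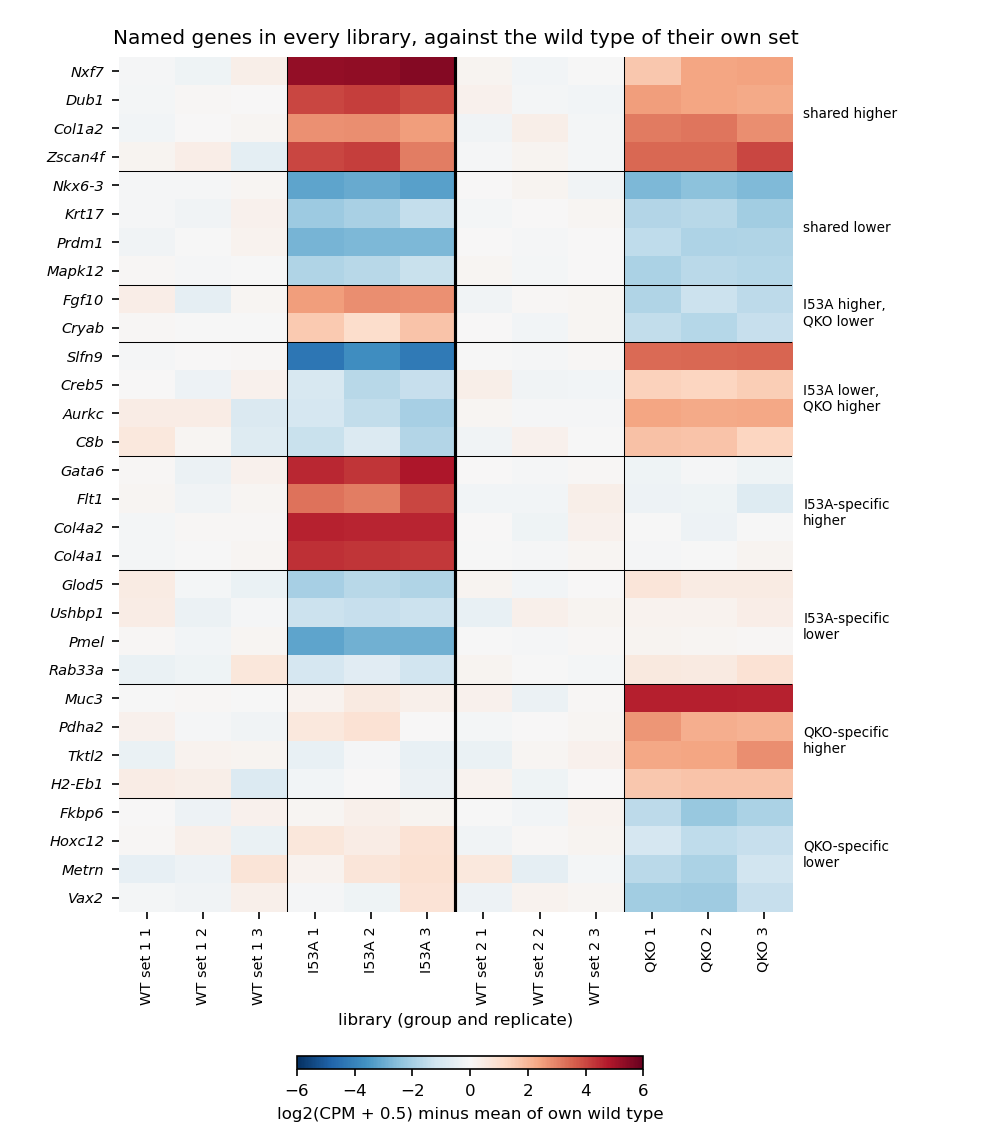
Rows are 30 genes named by class, columns the 12 libraries, and colour gives log2(CPM + 0.5) minus the wild type mean of the same set, on a range of -6 to 6. Shared genes have the same colour in the I53A and the QKO columns, opposite genes (Slfn9 and Fgf10 among them) have contrasting colours, and specific genes are coloured mainly in 1 set. Some specific genes, Rab33a, Glod5 and Hoxc12 included, are also faintly coloured in the other set, in the contrasting direction.

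Gene lists were next read by role, beginning with the chromatin complexes. Of 13 tested canonical PRC1 genes, 6 rose and 2 fell under I53A, while none rose and 7 fell under QKO, and the interaction was called higher for 7 and lower for 1 (18.0% and 18.1% of all genes). Of all genes, 22.9% rose and 21.2% fell under I53A, 21.2% rose and 20.2% fell under QKO, and 8.01% were shared higher, and the counts of the lists are read against these shares. The median effects were 0.19 and -0.23. The Polyhomeotic subunit Phc2 (0.91 and -0.22) and the chromodomain subunit Cbx2 (0.52 and -0.24) moved in opposite directions. Their QKO effects lost their calls when any 1 library labelled QKO was left out (-0.23 to -0.20 for Phc2 and -0.27 to -0.22 for Cbx2), and without replicate 3 of set 2 wild type (-0.17 and -0.18) or replicate 1 of set 1 wild type (-0.22 and -0.24). That of Phc2 also did without replicate 1 of I53A (-0.22) or replicate 2 of set 2 wild type (-0.20), and that of Cbx2 without replicate 1 of set 2 wild type (-0.25). Cbx8 rose only under I53A (2.36, interaction adjusted p = 0.000218). The count of 3 opposite genes was 5 with the replicate block and 1 to 5 with 1 library left out. It was 1 without replicate 1 of set 1 wild type, without replicate 3 of set 2 wild type, or without any 1 library labelled QKO, and 5 without replicate 3 of set 1 wild type. The 7 falls under QKO were 4 without any 1 library labelled QKO and 9 without replicate 3 of set 1 wild type.

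Of 18 tested variant PRC1 genes, 8 rose and 3 fell under I53A and 2 rose and 4 fell under QKO. The falls in both mutants and the rises under QKO were thus near or under the shares of all genes. E2f6, a DNA-binding repressor of one variant complex, rose by 1.09 ± 0.07 under I53A and had a QKO effect of -0.50 ± 0.07 (interaction adjusted p = 4.26e-08). Kdm2b, which brings a variant complex to CG-rich DNA, moved the same way (0.33 and -0.48), and the RING partner Pcgf5 rose only under I53A (1.25, interaction adjusted p = 1.26e-05). Bcorl1, a corepressor, rose in both (1.15 and 1.70). With the replicate block 7 members in place of 2 rose under QKO and 5 in place of 1 were shared higher, and without replicate 3 of I53A 4 rose under QKO.

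Of 11 tested genes of Polycomb repressive complex 2 (PRC2), which methylates histone H3, 4 rose and 2 fell under I53A, 1 rose and 3 fell under QKO, and the interaction was called higher for 5 and lower for 2. Phf19, an accessory subunit, fell in both and further under I53A (-2.53 ± 0.12 against -1.11 ± 0.12, interaction adjusted p = 1.81e-05). Suz12, a core subunit, had effects of 0.32 ± 0.06 and -0.29 ± 0.06. With the replicate block 4 members in place of 1 were opposite, 4 in place of 2 fell under I53A and 6 in place of 3 fell and 3 in place of 1 rose under QKO.

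Of 7 tested linker histone genes, the interaction was called lower for 2, H1f0 and H1fx, which do not depend on replication, and higher for 1, Hist1h1c, given above. H1f0 (chr15:78859152-78859689, plus strand, mm9), the H1 variant of differentiated and non-dividing cells, stood at 37.1, 33 and 31.9 CPM in set 1 wild type and 53.8, 50.0 and 58.2 CPM in I53A, and at 103, 102 and 99.6 CPM in set 2 wild type and 857, 837 and 862 CPM in the libraries labelled QKO. It rose in both, and more in the libraries labelled QKO (0.66 ± 0.07 against 3.07 ± 0.07, interaction -2.41 ± 0.09, adjusted p = 2.5e-10). H1fx, another such variant, stood at 13.4, 12.7 and 11.1 CPM in set 1 wild type and 12.7, 8.73 and 12.5 CPM in I53A, and at 48.2, 49.6 and 58.4 CPM in set 2 wild type and at a mean of 320.2 ± 14.2 CPM (SD, n = 3) in the libraries labelled QKO. It rose only there (2.62 ± 0.11, with an I53A interval of -0.43 to 0.14, interaction adjusted p = 5.34e-08). Over the 7 genes 2 rose under I53A and 4 under QKO, with medians of 1.01 and 2.62. Of 27 tested genes of replication-dependent core histones, whose transcripts lack a poly(A) tail, 10 rose under I53A and 7 under QKO and none fell. The latter count was 11 with the replicate block, and 4 without replicate 1 of set 2 wild type or without replicate 2 of the libraries labelled QKO. The 7 rises under QKO were near the share of all genes (21.2%). In 24 of the 27 genes the level was under 1 CPM in set 1 wild type, so a fall could hardly be called there.

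The Hox cluster genes, the classical Polycomb targets that pattern the body axis, had the widest gap between the median effects of all 33 lists. Of 20 tested Hox genes (of 39 listed), 18 rose under I53A and none fell, while none rose under QKO and 6 fell, and the interaction was called higher for 15 (12 to 16 with 1 library left out) and lower for none. The median effects were 3.44 under I53A and -1.33 under QKO with 2 members at 0 placed at their bounds, beside 0.01 and 0.01 over all genes. 5 members were opposite (3 without replicate 3 of set 2 wild type) and 9 were I53A-specific. Hoxa7 had 5 counts in set 1 wild type and 140 in I53A, and 16 counts in set 2 wild type and 1 in the libraries labelled QKO (interaction 8.41 ± 1.85, adjusted p = 6.44e-05). Hoxb13 had 15 and 207 counts in set 1 and 25 and 5 counts in set 2 (interaction 6.12 ± 1.08), with a QKO effect that lost its call when any 1 library labelled QKO, or replicate 1 or 3 of set 2 wild type, was left out (-2.44 to -1.67). In 15 of the 20 genes the level was under 1 CPM in set 1 wild type, so the sizes of these effects rest on few counts. Such a gene could pass the filter on low counts through a group where it was higher. A fall from so low a level could hardly be called. The filter and the floor thus favour rises under I53A among the tested members, and their part in these counts of direction was not tested.

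Of 82 tested developmental transcription factors, 50 rose and 10 fell under I53A, while 17 rose and 16 fell under QKO, and the interaction was called higher for 25 and lower for 7. The median effects were 1.36 and 0.06, the latter with 2 members at 0 placed at their bounds. In 43 of the 82 genes the level was under 1 CPM in set 1 wild type, so the limit given for the Hox genes holds here too. Falls under QKO numbered 8 without replicate 3 of set 2 wild type, and 9 and 10 without replicate 1 and replicate 3 of the libraries labelled QKO. Of 45 tested genes of developmental signalling, 22 rose and 9 fell under I53A and 13 rose and 11 fell under QKO, and 11 were shared higher (7 without replicate 2 of set 2 wild type, which also took the rises under QKO to 8). In 10 of the 45 genes the level was under 1 CPM in set 1 wild type, with the same limit. Ihh, a Hedgehog ligand, rose only under I53A (4.16, interaction adjusted p = 0.000848), and Bmp2, a BMP ligand, rose in both and more under I53A (6.27 and 2.37, on 1 and 103 counts in set 1 and 3 and 18 in set 2). The interaction of Bmp2 lost its call with the replicate block (3.88) and without most single libraries (3.12 to 3.97; the exceptions were replicate 1 of set 1 wild type, replicate 2 of set 2 wild type and replicate 2 of the libraries labelled QKO), and its QKO effect without replicate 2 of set 2 wild type (1.87) or of the libraries labelled QKO (2.10).

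The primitive endoderm list showed both shared and I53A-specific rises. Of 24 tested genes, 22 rose and 1 fell under I53A, 13 rose and 3 fell under QKO, and 12 were shared higher and 6 I53A-specific higher. The interaction was called higher for 17 and lower for 1, and the median effects were 4.31 and 0.73. In 8 of the 24 genes the level was under 1 CPM in set 1 wild type, so the limit given for the Hox genes holds for them too. Cubn, an endocytic receptor of visceral endoderm, had an I53A effect of 7.77 ± 0.27 and a QKO effect of 2.32 ± 0.35, and thus rose in both but more under I53A (interaction 5.45 ± 0.44, adjusted p = 8.38e-06). Srgn, a proteoglycan, did likewise (6.04 and 3.29), with the interaction not called without replicate 1 of set 2 wild type (2.08). Gata4, a transcription factor of this lineage that lies on chromosome 14, rose under I53A and fell under QKO (4.42 and -0.57), the latter without a call when replicate 1 or 3 of set 2 wild type or of the libraries labelled QKO was left out (-0.54 to -0.45). The summed level of 10 defining markers was 119 to 130 CPM in set 1 wild type and 2119 to 2198 CPM in I53A, and 120.0 to 139 CPM in set 2 wild type and 149.9 to 159 CPM in the libraries labelled QKO, with no marker at 0 in any group. Whether more cells of this type stand behind these counts was not tested.

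Naive and core pluripotency genes fell more often than they rose under I53A, and rose more often than they fell under QKO. Of 30 tested genes, 4 rose and 14 fell under I53A, 9 rose and 4 fell under QKO, and the interaction was called lower for 12 and higher for 2. The medians were -0.26 and 0.15. Klf2, a naive pluripotency factor on chromosome 8, stood at 265, 239.7 and 475 CPM in set 1 wild type and 97.8, 90.2 and 154 CPM in I53A, and at 138, 162 and 183 CPM in set 2 wild type and 357, 316 and 333 CPM in the libraries labelled QKO. Replicate 3 was the highest of both set 1 groups, and within each set the groups did not overlap (effects -1.52 ± 0.28 and 1.06 ± 0.28, interaction adjusted p = 0.00111). The QKO effect of Klf2 lost its call without replicate 1 of set 2 wild type (0.95). Zfp42, a marker of naive cells on chromosome 8, stood at 676, 676 and 694 CPM in set 1 wild type and 492, 490.0 and 477 CPM in I53A, and at 956, 963 and 932 CPM in set 2 wild type and 1768, 1709 and 1676 CPM in the libraries labelled QKO (interaction -1.34 ± 0.07). Tet2, on chromosome 3, encodes an enzyme that oxidises methylated cytosine. It stood at 404, 397 and 407 CPM in set 1 wild type and 260.3, 267 and 236 CPM in I53A, and at 228, 244 and 219.6 CPM in set 2 wild type and 355, 348 and 338 CPM in the libraries labelled QKO, lower in the first and higher in the second mutant (interaction -1.25 ± 0.08, adjusted p = 5.34e-08). Lefty1, a Nodal inhibitor, fell in both (-2.32 and -1.4), and Dppa2, an activator of two-cell genes, rose in both (0.95 and 0.81).

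These pluripotency counts depended on the libraries. With the replicate block the interaction was called lower for 20 of the 30, shared lower genes numbered 10 in place of 4, and the QKO calls were 16 higher and 11 lower. Without replicate 1 of set 2 wild type, 5 rose under QKO and 3 in place of 5 were opposite. Without replicate 3 of set 1 wild type, 7 were shared lower and 9 fell under QKO, and without replicate 3 of I53A 7 fell under QKO.

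Of 30 tested germline genes, 23 rose and 3 fell under I53A and 20 rose and 3 fell under QKO, and 17 were shared higher (16 to 18 with 1 library left out), with medians of 1.43 and 0.74. Members differed in which mutant moved them more. Mael, of the piRNA pathway, rose by 2.96 under I53A and 0.51 under QKO (interaction 2.45 ± 0.13, adjusted p = 6.47e-09). Sohlh2, a germ cell transcription factor, rose by 0.32 and 2.91 (interaction -2.59 ± 0.11, adjusted p = 8.05e-10). Ddx4, the germ cell RNA helicase, rose under I53A and fell under QKO (1.5 and -0.50). Brdt, a bromodomain protein of the testis, and Tex101, a germ cell surface protein, rose in both without a called interaction (95% intervals 0.04 to 1.02 and -1.19 to 1.81).

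Trophoblast genes rose more often than they fell under I53A and fell more often than they rose under QKO. Of 12 tested trophoblast genes, 6 rose and 1 fell under I53A and 1 rose and 6 fell under QKO, with 4 opposite genes. The keratins Krt8 (1.67 and -1.18) and Krt18 (1.84 and -0.89), which pair in simple epithelia, and the transcription factor Hand1 (2.78 and -1.70, on 38 and 12 counts in set 2) were among them. The fall of Hand1 lost its call without replicate 3 of set 2 wild type (-1.33) or replicate 1 of the libraries labelled QKO (-1.28). Tcfap2c, another trophoblast factor, fell in both (-1.94 and -0.81). Of 18 tested mesoderm genes, 9 rose and none fell under I53A, and 3 rose and 5 fell under QKO, and these were 1 and 3 without replicate 1 of the libraries labelled QKO, and 1 rose without replicate 1 of set 2 wild type. The QKO counts of the mesoderm list were near the shares of all genes. In 3 of the 12 trophoblast and 5 of the 18 mesoderm genes the level was under 1 CPM in set 1 wild type. The limit given for the Hox genes holds for them too. Eomes, a T-box factor of mesendoderm, had effects of 0.74 and -0.98.

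Genes of fibroblasts, the feeder cells used with some embryonic stem cell cultures, rose more often than they fell in each mutant. Of 15 tested, 14 rose and 1 fell under I53A and 9 rose and 1 fell under QKO, with 8 shared higher (6 to 8 with 1 library left out) and 2 opposite, beside 22.9% and 21.2% of all genes that rose. In 5 of the 15 genes the level was under 1 CPM in set 1 wild type, so the limit given for the Hox genes holds for them too. Ddr2, a collagen receptor, rose far more under QKO (0.55 and 4.21, interaction adjusted p = 5.75e-09), and Bgn, a proteoglycan on chromosome X, rose only under I53A (3.81, interaction adjusted p = 0.000994). The summed level of 9 fibroblast markers was 23.6 to 25.0 CPM in set 1 wild type, with Postn, Dcn and Fap at 0, and 56.9 to 63.0 CPM in I53A, with Lum at 0. It was 23.6 to 24.2 CPM in set 2 wild type, with Col3a1, Postn, Lum, Dcn and Fap at 0, and 43.1 to 44.3 CPM in the libraries labelled QKO, with Lum and Dcn at 0. Most of each sum came from Thy1 and Pdgfrb. Their means were 14.7 and 6.9 CPM in set 1 wild type and 30.4 and 18.97 CPM in I53A. In set 2 they were 13.8 and 8.34 CPM in wild type and 24.8 and 9.15 CPM in the libraries labelled QKO. The means of Col3a1, Postn, Lum, Dcn and Fap were at most 0.348 CPM in any group. The part of the fibroblast markers in the counts was not tested.

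Imprinted genes are expressed from 1 parental allele. Of 8 tested genes of the Dlk1-Dio3 region on chromosome 12, 4 fell and 2 rose under I53A and 1 fell and 1 rose under QKO, with medians of -2.71 and -0.55, the latter with 1 member at its bound. Of the 8, 4 were I53A-specific lower, 1 was I53A-specific higher and 1 shared higher. The noncoding RNA Rian had 3652 counts in set 1 wild type and 37 in I53A (-6.56 ± 0.25), and 34 and 22 counts in set 2 (-0.72 ± 0.39, 95% interval -1.55 to 0.11), an interaction of -5.84 ± 0.46 (adjusted p = 1.03e-06). In set 2 its level was already near the floor in wild type, which limits what a fall there could show, and the interaction count of 4 became 2 without replicate 1 or 3 of the libraries labelled QKO. Among 31 imprinted genes elsewhere, 12 rose and 7 fell under I53A and 14 rose and 6 fell under QKO, and 7 were opposite. Grb10, a growth factor receptor adaptor, stood at 50.7, 49.1 and 51.2 CPM in set 1 wild type and 181, 189.8 and 185 CPM in I53A, and at 638, 646 and 609.9 CPM in set 2 wild type and 307, 312 and 301.8 CPM in the libraries labelled QKO. It rose in the first and fell in the second (1.88 ± 0.05 and -1.04 ± 0.05, interaction adjusted p = 3.32e-12). Peg10, a retrotransposon-derived placental gene, did likewise (2.08 and -0.22), although its fall lost its call without replicate 2 or 3 of set 2 wild type or replicate 1 or 2 of the libraries labelled QKO (-0.22 to -0.19), and Igf2, a fetal growth factor, rose in both (2.88 and 1.92).

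Metabolic genes were read next. Of 23 tested genes of cholesterol synthesis and its control, 16 fell and none rose under QKO, whereas 7 fell and 5 rose under I53A, and the interaction was called higher for 10 and lower for 1 (medians -0.14 and -0.34). Insig1, a sterol sensor partner, rose under I53A and fell under QKO (0.66 and -0.50). Mvd, an enzyme of the pathway on chromosome 8, fell in both (-0.43 and -0.75). The 7 shared lower genes were 11 and the 7 falls under I53A were 12 with the replicate block, and they were 3 and 4 without replicate 1 of I53A. The single lower interaction became 3 with the block.

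Of 30 tested genes of glycolysis and hypoxia, 15 rose and 2 fell under I53A and 7 rose and 12 fell under QKO. The interaction was called higher for 18 and lower for 1, with medians of 0.31 and -0.23. Egln3, an oxygen-sensing hydroxylase induced by hypoxia, rose under I53A and fell under QKO (0.48 ± 0.11 and -1.86 ± 0.10, interaction adjusted p = 3.66e-08), as did Ddit4, a stress-induced inhibitor of mTORC1 (0.74 and -1.11), and Slc2a3, a glucose transporter (0.46 and -0.49). P4ha2, a collagen prolyl hydroxylase, rose in both and more under I53A (2.48 and 0.38). The 5 shared higher genes were 8 with the replicate block or without replicate 3 of set 1 wild type, the 7 opposite genes were 4 at the lowest, without replicate 1 of set 2 wild type or of the libraries labelled QKO, and falls under I53A were 4 with the replicate block and 5 without replicate 3 of set 1 wild type.

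Of 28 tested genes of the amino acid and unfolded protein responses, 14 fell and 3 rose under I53A, and 6 fell and 6 rose under QKO. The interaction was called lower for 10 and higher for 4 (1 without replicate 2 or 3 of set 2 wild type or replicate 1 or 2 of the libraries labelled QKO), and the 3 rises under I53A were 6 with the replicate block. Slc7a3, a cationic amino acid transporter on chromosome X, and Ddit3, a stress transcription factor, fell under I53A and rose under QKO (-1.54 and 0.46, and -1.47 and 0.44). In the other lists the opposite genes included Cdkn2a, a cell cycle inhibitor (0.69 and -1.99), Ncam1, a neural adhesion molecule (-1.29 and 2.52), Suv39h1, a histone H3 methyltransferase (0.70 and -0.78), and the epiblast genes Cldn6 (1.42 and -1.16) and Dusp6 (0.95 and -0.79). Dnmt3l, a cofactor of DNA methylation, rose in both and more under QKO (0.34 and 1.69, interaction adjusted p = 1.73e-08).

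Most of the remaining lists had interactions called in both directions, and the mitochondrially encoded and Y-linked lists in 1 direction alone. Over all genes 18.0% were called higher and 18.1% lower, and some lists were near these shares, such as the H2A deubiquitinase genes (20% and 20%). Those called higher and lower numbered 15 and 10 of 39 lysosome genes, 8 and 6 of 24 p53 target genes, 6 and 2 of 14 primed epiblast genes, 4 and 5 of 19 interferon response genes, 4 and 5 of 14 heat shock genes and 4 and 3 of 16 immediate early genes. They numbered 4 and 3 of 11 neural genes, 4 and 3 of 11 cell cycle inhibitors, 2 and 2 of 10 H2A deubiquitinase genes, 2 and 3 of 10 DNA methylation genes and 1 and 4 of 11 genes of H3K9 methylation. They numbered 4 and 0 of 15 mitochondrially encoded genes and 0 and 1 of 6 Y-linked genes. Ctsh, a lysosomal protease, rose only under I53A (3.82, interaction adjusted p = 1.41e-06), and Bap1, an H2A deubiquitinase gene on chromosome 14, rose only under QKO (0.45, interaction adjusted p = 0.000117). Egr1, an immediate early transcription factor, fell only under I53A (-2.22, interaction adjusted p = 0.000187).

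**Figure D5:**
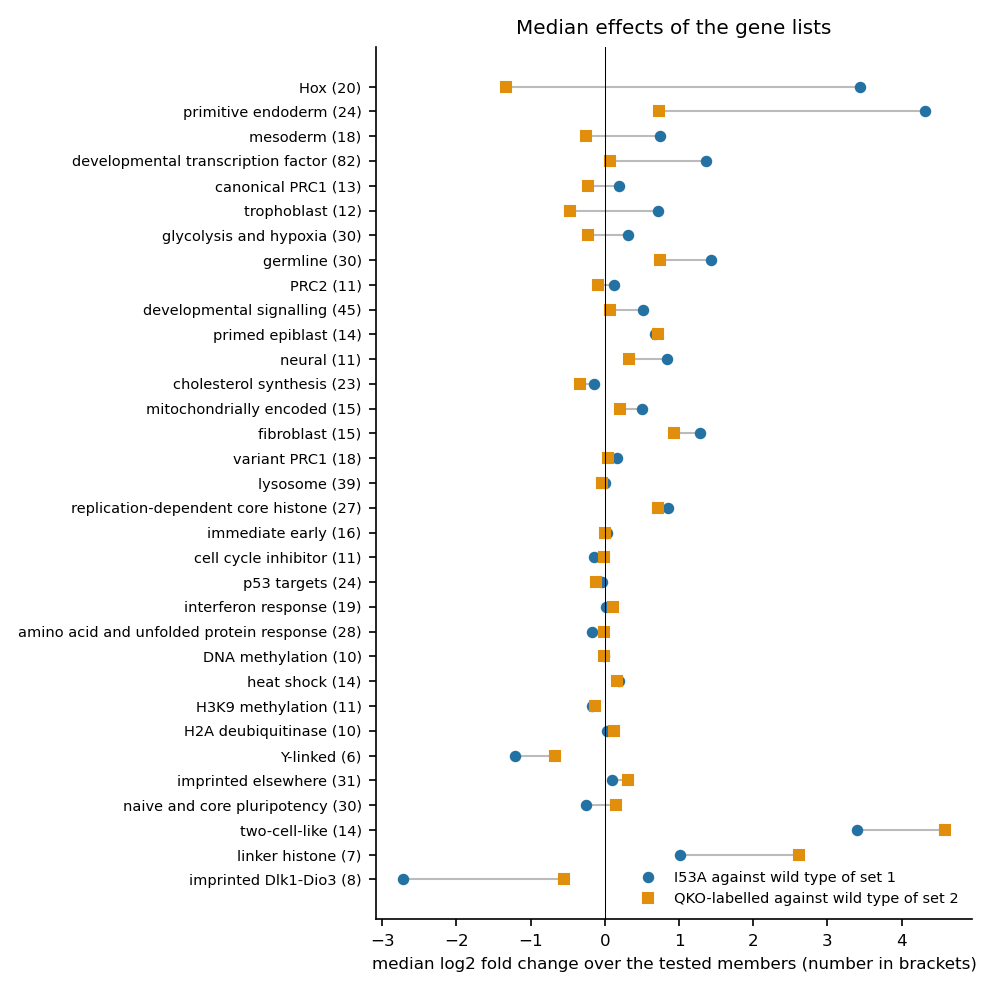
For each of 33 gene lists (y axis, sorted by the median interaction) the circle is the median I53A effect and the square the median QKO effect (x axis, log2 against the wild type of the same set), with members at 0 counts placed at their bounds. The symbols of the Hox list lie farthest to opposite sides (3.44 and -1.33), and both symbols of the two-cell-like list lie far to the right (3.40 and 4.58).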

How the data were processed

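Each library came with a table of whole-number counts, deposited by the authors without normalization, for 33924 gene names. Counting used featureCounts 1.6.3 in paired mode, per the file headers, on a GENCODE annotation of mm9, with no option for strand or for multiply aligned fragments. Reads of overlapping genes on opposite strands, and of near-identical copies, therefore cannot be told apart. The alignments carry other names in each set, and the submitters' processing notes name HISAT2 among the tools and give the same text for both. CPM values were computed here from counts and TMM factors.

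Counts of 12 libraries (3 per group) were filtered with filterByExpr, which left 16501 genes and dropped 17423, and fitted with edgeR 4.0.16 (R 4.3.3) by a means model with robust quasi-likelihood and Benjamini-Hochberg adjustment. Standard errors were computed from the fitted weights and the moderated dispersion. Classes follow from the 3 tests at 0.05. Per class, 4 genes were named by the smaller of both absolute effects (shared, opposite) or by the absolute interaction (specific). They needed at least 1 CPM in the higher group, groups that do not overlap, and an established symbol. Per list, up to 3 tested members with the largest called interaction, and up to 2 more that were shared or opposite, could be named. Genes named from a list follow that rule, and a few genes it picks are not reported here. The comparison, the 33 gene lists and the members were chosen with earlier results of these data known, so the lists are descriptions without a test. The intervals of count ratios and the floors cover counting error only. Those of effects and interactions were computed from the standard errors and so also take in the spread among libraries.

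On simulated counts of 16501 genes, this comparison put 56 to 84% of 2-fold and 84 to 96% of 4-fold changed genes (25 of each of 4 kinds) in their class, and called the interaction for 9 unchanged genes. Replicate numbers were checked by correlating deviations from the group means. In set 1 same-numbered pairs correlated at 0.202 to 0.467, and replicates 1 and 2 across numbers at 0.207 and 0.209. In set 2 the range was -0.01 to 0.02. Numbers follow the titles; the tables of I53A replicates 1 and 2 are named in the other order. The numbers thus pair the samples in set 1, mainly by replicate 3, whose tables follow another naming style, and not in set 2. Alternatives were DESeq2 1.42.0, limma 3.58.1 (voom), other scalings and filters, a replicate block, a term for replicate 3 of set 1 and each library left out. Promoters were found for 71.9% of the genes tested, under the 80% needed, so base composition by class was void and is not reported.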

Additional observations from a re-analysis of the deposited data

Results flagged for a closer look

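The genotype effects differed by a test of the difference itself, the interaction of edgeR's quasi-likelihood fit. It was called for 2968 genes that were relatively higher under I53A and 2993 that were relatively lower, out of 16501 tested. Each set has its own wild type and the alignments of the sets are named differently, so the set and the mutant cannot be told apart beyond what each set's own wild type removes.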

How the results depend on the processing

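For 171 genes picked by the naming rule, 416 called effects and interactions were recomputed under 21 alternatives. None of the 8730 values so obtained reversed, 8547 kept their call and 183 lost it. Losses with 1 library left out that bear on a direction in the text are given there. Under limma-voom the QKO effects of Gata4 (-0.58) and Hoxb13 (-1.63) lost their calls as well. Those of Phc2 (-0.20) and Cbx2 (-0.22) did so with a filter of at least 1 CPM in 3 libraries. The interaction of Bmp2 also lost its call without a filter on low counts (3.90) and without both replicate 3 libraries of set 1 (3.61). Of the 10 counts of interactions and classes, 232 of 254 values under alternatives stayed within 1.5 times, all those with 1 library left out among them. The exceptions follow. With the replicate block, shared lower genes numbered 1831 and opposite genes 1003 (higher under I53A) and 994 (lower), and of the 416 gene values 1 lost its call, the interaction of Bmp2 (3.88). Of the 3823 specific genes, 75.8 to 80.5% of each class kept it with the block and 233 became shared or opposite. With a term for replicate 3 of set 1, chosen after seeing the data, shared lower and opposite genes numbered 1781, 984 and 993, and without both replicate 3 libraries of set 1 the opposite genes higher under I53A numbered 888. The term left 77.5 to 82.1% of each specific class in place, and leaving out 1 library 71.3 to 88.0%. At an adjusted p of 0.01, interactions called higher numbered 1924, shared genes 797 higher and 679 lower, and opposite genes 306 and 347. Calling a gene specific where its other effect was under 0.5, in place of not called, gave 223 and 251 opposite genes. Requiring 2-fold effects gave 561 and 66 shared, 49 and 78 opposite, 493 and 361 I53A-specific and 504 and 287 QKO-specific genes. The stricter limits leave fewer genes by construction, and the cause of the other changes was not tested. Depth limits genes such as the Hox genes and Dux, which rest on a few counts in wild type.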
